A study of Mus musculus with 8 samples.

Results

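The small subunit processome and the factors that finish the small ribosomal subunit were followed as a set of 42 genes, chosen by name, of which 41 had a row among the 37991 gene identifiers of the deposited count table. Riok2, which encodes a kinase of late 40S maturation, had no row that the name table matched, so no value is given for it. RNA was sequenced from bone marrow of C57BL/6J mice, in Flt3- LSK cells, a sorted population rich in blood stem and progenitor cells. Each sample was made from 24000 sorted cells, and after purification the RNA received the ERCC mix of artificial transcripts as a spike-in. The Mut samples were labelled Runx1 deficient and the WT samples carried Runx1f/f alleles, which can be deleted by a recombinase. Neither the recombinase that would delete Runx1, nor the age, sex or pooling of the animals, is given in the sources used here. Each genotype had 2 mRNA libraries, made from polyA-selected RNA, and 2 total RNA libraries, named so that each pair of libraries appears to come from 1 sorted sample. Per its title, the study asked how loss of Runx1 bears on ribosome production in these cells.

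The small subunit processome is a large particle that assembles on nascent ribosomal RNA in the nucleolus, where the U3 RNA and several protein subcomplexes fold and cut the precursor of 18S rRNA. It then gives way to a pre-40S particle, which is exported and finished in the cytoplasm by kinases, GTPases and the endonuclease Nob1. Cells that grow fast make much of this machinery, and haematopoietic stem cells are known for a low rate of protein synthesis. The transcription factor Myc, which binds the E-box sequence CACGTG, is a known activator of many of these genes.

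Libraries held between 35096252 and 37924699 gene counts in the mRNA kind and between 967694 and 1218437 in the total RNA kind, where rRNA made up 93.3 to 94.5% of the reads counted. Runx1 (ENSMUSG00000022952) stood at 749 and 941 CPM in the libraries labelled Mut and at 200 and 208 CPM in WT mRNA libraries. CPM is the count scaled to a common library total, here after TMM scaling, which equalises libraries on the bulk of their genes. Runx1 was thus higher in the libraries labelled Mut (log2 fold change 2.05, edgeR adjusted p = 0.00753), and a count over the whole gene does not check a deletion of part of it. The groups are therefore called Mut-labelled and WT, and every direction below rests on the labels. Kit, which defines the LSK gate, was at 954 and 1100 CPM in Mut-labelled and 891 and 884 CPM in WT mRNA libraries. Ly6a, which encodes the gate's Sca-1 antigen, was at 32.5 and 26.0 CPM in Mut-labelled and 23.7 and 38.6 CPM in WT. Flt3 was detected at 57.3 and 87.6 CPM in Mut-labelled and 117 and 155 CPM in WT although the gate was Flt3-. Genes of other blood cells differed between the groups, with 2 of 10 mature neutrophil genes called higher by edgeR in Mut-labelled mRNA libraries, 6 of 12 erythroid genes called lower, and 4 of 10 megakaryocyte genes called higher and 1 lower, against 3.64% of all genes called in either direction. All 10 neutrophil genes were higher at an unadjusted p under 0.05 by edgeR, against 7.27% of all genes, with a median log2 fold change of 2.85. In total RNA libraries 6 of 6 tested were called higher, against 4.22% of all genes called in either direction. The summed level of the neutrophil genes in mRNA libraries was 529 and 167 CPM in Mut-labelled and 41.7 and 49.8 CPM in WT. That of the erythroid genes was 431 and 288 CPM in Mut-labelled and 1385 and 1090 CPM in WT. The megakaryocyte genes summed to 1913 and 1760 CPM in Mut-labelled and 610 and 548 CPM in WT. The 8 B and plasma cell genes summed to 394 and 2082 CPM in Mut-labelled and 833 and 9424 CPM in WT, while Ms4a1, a defining B cell gene, had 0 counts in all of these libraries but WT replicate 1. The 8 T and NK cell genes summed to 36.7 and 35.8 CPM in Mut-labelled and 97.1 and 85.0 CPM in WT. Of 6 tested 4 were negative, with Lck and Nkg7 called lower. The other 2 were positive, Cd3e (log2 fold change 1.17, edgeR adjusted p = 0.346) and Cd3g (1.30, edgeR adjusted p = 0.625). Cd3d had 10 and 4 counts in Mut-labelled and 0 in WT libraries, and Cd8a had 0 in Mut-labelled and 12 and 1 in WT. The 8 macrophage and dendritic cell genes summed to 79.0 and 69.2 CPM in Mut-labelled and 85.7 and 114 CPM in WT. Of these 7 were negative, with H2-Aa called lower. Csf1r went the other way, at 49.5 and 30.7 CPM in Mut-labelled and 17.0 and 13.5 CPM in WT (log2 fold change 1.40, edgeR adjusted p = 0.0643). The 8 stromal and endothelial genes summed to 243 and 169 CPM in Mut-labelled and 261 and 219 CPM in WT, with Kdr called higher and Bgn lower. The part of such cells in the results below was not tested.

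In the mRNA libraries no assembly factor passed the test between Mut-labelled and WT cells, yet small differences below 0 prevailed. Of 41 members, all of which were tested, 0 were called by edgeR's quasi-likelihood test at an adjusted p under 0.05, against 3.64% of the 17128 genes tested. DESeq2 also called 0. With the replicate number fitted as a block, edgeR called 3 members, against 16.8% of all genes. A shared number is not stated to mark a shared batch. Since the labels do not say that replicates came from separate animals, the p-values reflect only how far these libraries spread, which may be technical. At an unadjusted p under 0.05 edgeR had 1 member, against 15.7% of all genes, and it was higher, against 7.27%. The log2 fold change was negative for 37 of the 41 members, against 51.4% of all genes, and its median was -0.16, against -0.01 for all genes. The middle of the members' distribution lay between -0.20 and -0.06 (the quartiles), which is narrower than the -0.27 to 0.23 of all genes. The members had a median of 2512.5 counts in these libraries, while the genes tested include some with far fewer. These widths were not compared at like counts. In 15 members both Mut-labelled libraries were below both WT libraries, against 23.1% of all genes, and in 3 members both were above, against 21.4%. With bulk RNA, fewer cells of a type that is rich in these transcripts and less RNA per cell cannot be told apart.

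**Figure D1:**
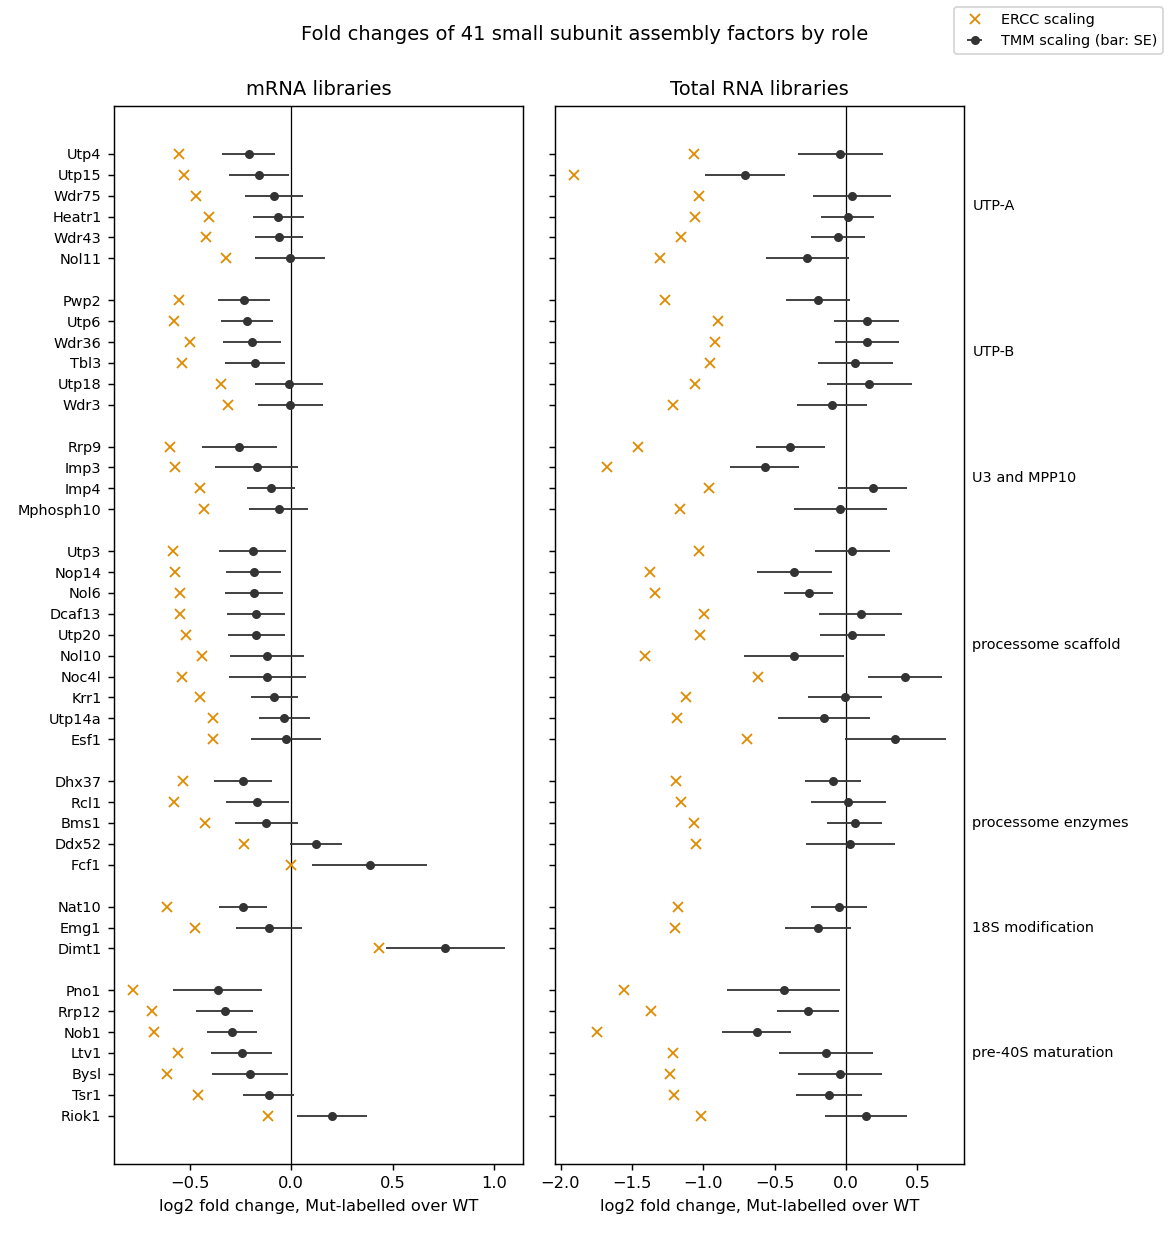
Log2 fold change of Mut-labelled over WT for each of 41 members, grouped by role, in mRNA (left) and total RNA (right) libraries, with TMM scaling (points, bars are standard errors, n = 2 libraries per group) and ERCC scaling (crosses). With TMM scaling 37 of 41 points lie below 0 in mRNA libraries and 23 of 39 in total RNA libraries, and Dimt1 and Fcf1 have no point on the right because they were not tested there.

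The 6 UTP-A proteins bind the growing transcript first and in yeast are tied to its transcription. All 6 were negative in mRNA libraries, with a median log2 fold change of -0.07. Heatr1 (ENSMUSG00000050244), a long repeat protein of this complex, was at 135 and 137 CPM in Mut-labelled and 150 and 135 CPM in WT libraries. Its groups overlapped (log2 fold change -0.06, SE 0.13, edgeR adjusted p = 0.904). Utp4, the mouse counterpart of the human cirhin gene, was at 67.2 and 65.1 CPM in Mut-labelled and 82.2 and 70.8 CPM in WT. Both Mut-labelled values were lower, but the gap to WT replicate 2 was smaller than that between the WT libraries (log2 fold change -0.21, SE 0.13, edgeR adjusted p = 0.575). Utp15 (-0.16), Wdr75 (-0.08), Wdr43 (-0.06) and Nol11 (-0.01), which encode further subunits, had log2 fold changes closer to 0 than that of Utp4.

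The UTP-B complex holds the 5′ end of the pre-rRNA together with U3. In mRNA libraries it had 6 negative log2 fold changes among its 6 members, with a median of -0.19. In total RNA libraries 4 of the 6 were positive, with a median of 0.10. Pwp2, a repeat protein at its core, was at 67.1 and 73.0 CPM in Mut-labelled and 86.7 and 77.7 CPM in WT mRNA libraries. Both Mut-labelled values were lower (log2 fold change -0.23, SE 0.13, edgeR adjusted p = 0.50). Utp6 was at 104 and 97.8 CPM in Mut-labelled and 124 and 111 CPM in WT, again without overlap (log2 fold change -0.22, SE 0.13, edgeR adjusted p = 0.544). Wdr36 (-0.19) and Tbl3 (-0.18) were close to these, while Utp18 (-0.01) and Wdr3 (-0.00) had log2 fold changes near 0.

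U3 RNA and the Mpp10 complex bring the snoRNA to the pre-rRNA. Rrp9, a protein that binds U3, was at 65.7 and 56.1 CPM in Mut-labelled and 83.3 and 62.1 CPM in WT mRNA libraries. WT replicate 1 stood above the other libraries, and Mut-labelled replicate 1 was above WT replicate 2 (log2 fold change -0.26, SE 0.18, edgeR adjusted p = 0.64; without WT replicate 1 it was -0.03). Mphosph10, the scaffold of the Mpp10 complex, was at 42.2 and 40.1 CPM in Mut-labelled and 44.5 and 41.4 CPM in WT, with overlap (log2 fold change -0.06, SE 0.14, edgeR adjusted p = 0.919). Its partners Imp3 and Imp4 had log2 fold changes of -0.17 and -0.10.

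Among 10 scaffold proteins of the particle all log2 fold changes were negative in mRNA libraries, from -0.19 (Utp3) to -0.03 (Esf1). In total RNA libraries 5 were negative and 5 positive, with a median of 0.02. Utp20, a very long repeat protein, was at 92.2 and 109 CPM in Mut-labelled and 108 and 118 CPM in WT mRNA libraries. The groups overlapped, by the small distance between Mut-labelled replicate 2 and WT replicate 1 (log2 fold change -0.17, SE 0.14, edgeR adjusted p = 0.696). Nop14, a scaffold that in yeast works with Noc4 and Emg1, was at 69.1 and 61.1 CPM in Mut-labelled and 77.5 and 70.5 CPM in WT, without overlap (log2 fold change -0.19, SE 0.13, edgeR adjusted p = 0.641). Nol6 (-0.18), Dcaf13 (-0.17), Nol10 (-0.12), Noc4l (-0.12), Krr1 (-0.08) and Utp14a (-0.03) also had log2 fold changes between those limits.

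The enzymes of the particle were less uniform. Bms1, a GTPase that acts with Rcl1, was at 108 and 137 CPM in Mut-labelled and 136 and 131 CPM in WT mRNA libraries. Mut-labelled replicate 1 was low and replicate 2 was the highest of the 4 (log2 fold change -0.12, SE 0.16, edgeR adjusted p = 0.824). Dhx37, a helicase whose yeast counterpart frees U3 from the pre-rRNA, was at 75.1 and 87.8 CPM in Mut-labelled and 102 and 90.1 CPM in WT (log2 fold change -0.24, SE 0.14, edgeR adjusted p = 0.549). Rcl1 had a log2 fold change of -0.17, while Fcf1, the mammalian counterpart of the yeast endonuclease Utp24, had 0.39 and the helicase gene Ddx52 had 0.12.

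A further 3 members modify 18S rRNA. Nat10 (ENSMUSG00000027185), which acetylates cytidines, was at 112 and 111 CPM in Mut-labelled and 133 and 130 CPM in WT mRNA libraries. Replicates were close in both groups and the groups were apart (log2 fold change -0.24, SE 0.12, edgeR adjusted p = 0.434). Dimt1 (ENSMUSG00000021692), which dimethylates adenosines, was the 1 member with an unadjusted p under 0.05 and pointed up, with 5.06 and 5.69 CPM in Mut-labelled and 3.27 and 3.09 CPM in WT (log2 fold change 0.76, SE 0.29, edgeR adjusted p = 0.292). Its counts were the lowest of the members, 177 and 208 in Mut-labelled and 124 and 118 in WT mRNA libraries, and its exons overlap those of Kif2a on the other strand in GENCODE M21. The use of strand in the counting is not given in the sources used here, so reads of the pair cannot be told apart. Of the 41 members 18 share exon bases with a gene on the other strand and are uncertain in the same way: Dimt1, Heatr1, Wdr43, Nol11, Tbl3, Wdr3, Wdr36, Rrp9, Imp4, Utp14a, Nop14, Krr1, Fcf1, Emg1, Bysl, Riok1, Tsr1 and Pno1. Emg1, a methyltransferase of the particle, had a log2 fold change of -0.11.

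The factors of the pre-40S particle had the lowest median of the roles in mRNA libraries, -0.24, with 6 of 7 measured members negative. In total RNA libraries their median was -0.14, also with 6 of 7 negative, and that of the U3 and Mpp10 role was lower, -0.21. Rrp12 (ENSMUSG00000035049), a repeat protein of pre-40S export, was at 67.2 and 61.4 CPM in Mut-labelled and 87.2 and 74.2 CPM in WT mRNA libraries. Both Mut-labelled values were lower (log2 fold change -0.33, SE 0.14, edgeR adjusted p = 0.348). Nob1 (ENSMUSG00000003848), the endonuclease that makes the 3′ end of 18S rRNA, was at 88.7 and 82.1 CPM in Mut-labelled and 106 and 103 CPM in WT. Its groups did not overlap (log2 fold change -0.29, SE 0.12, edgeR adjusted p = 0.335). Pno1, which binds pre-rRNA near the Nob1 site, was at 34.2 and 24.7 CPM in Mut-labelled and 41.6 and 34.2 CPM in WT. Mut-labelled replicate 1 was level with WT replicate 2, and the log2 fold change of -0.36 had an SE of 0.22 (edgeR adjusted p = 0.553). It was the lowest of the members with all libraries, but -0.14 with Mut-labelled replicate 2 left out, -0.22 with WT replicate 1 left out and -0.62 with Mut-labelled replicate 1 left out. Ltv1, an export adaptor, was at 45.9 and 48.2 CPM in Mut-labelled and 61.0 and 50.4 CPM in WT, without overlap (log2 fold change -0.24, SE 0.15, edgeR adjusted p = 0.565). Bysl (-0.20) and the GTPase-like Tsr1 (-0.11) were negative, and the kinase gene Riok1 had a log2 fold change of 0.20.

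**Figure D2:**
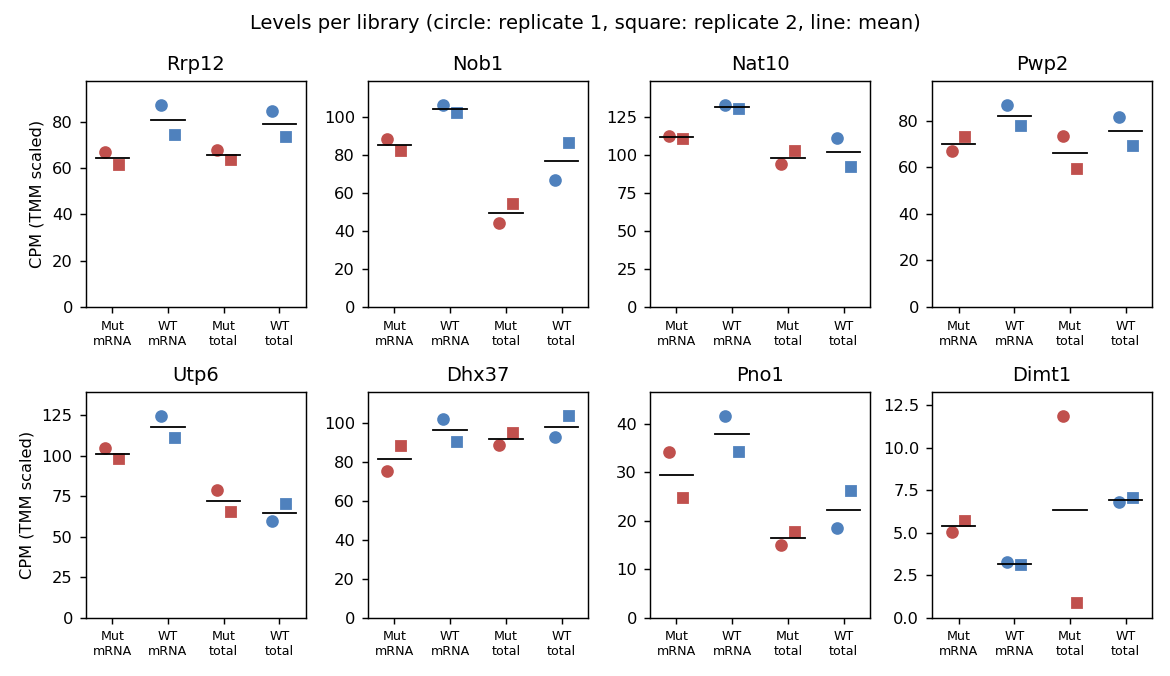
TMM-scaled CPM of 8 members in each library (vertical axis), for Mut-labelled and WT mRNA and total RNA libraries (horizontal axis), with circles for replicate 1, squares for replicate 2 and lines for the mean of 2 libraries. Rrp12 and Nob1 are lower in both Mut-labelled libraries of both kinds, and Nat10 is so in the mRNA libraries.

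The difference in the mRNA libraries leaned on WT replicate 1. Of 41 members, 32 had their highest level in WT replicate 1, 3 in WT replicate 2, 2 in Mut-labelled replicate 1 and 4 in Mut-labelled replicate 2. The median log2 ratio of WT replicate 1 over WT replicate 2 was 0.17 over the members, against 0.00 over all genes, which is as large as the median difference between genotypes. Compared with WT replicate 1, Mut-labelled replicate 1 was lower in 37 of 41 members (median log2 ratio -0.17) and Mut-labelled replicate 2 in 34 (median -0.27). Compared with WT replicate 2, Mut-labelled replicate 1 was lower in 19 of 41 members (median log2 ratio 0.00) and Mut-labelled replicate 2 in 30 (median -0.07). With WT replicate 1 left out the median log2 fold change was -0.06 and 29 of 41 members were negative. With Mut-labelled replicate 2 left out it was -0.10, and 31 were negative. Among single members, leaving out WT replicate 1 brought the log2 fold change to -0.21 for Rrp12, -0.15 for Pwp2, -0.15 for Dhx37, -0.13 for Utp6, -0.12 for Nop14, -0.10 for Ltv1 and -0.10 for Utp4. Leaving out Mut-labelled replicate 1 brought it to -0.13 for Dhx37, -0.06 for Utp20 and -0.28 for Nop14. Leaving out Mut-labelled replicate 2 brought it to -0.09 for Nop14, -0.29 for Utp20, -0.30 for Bms1 and -0.14 for Rrp9. Without WT replicate 2, Utp20 was at -0.09 and Rrp9 at -0.44. For Nob1, Nat10 and Dimt1 no left-out library moved the value by over 1.5 times. The 16 proliferation genes summed to 4798 and 4108 CPM in Mut-labelled and 4646 and 4463 CPM in WT mRNA libraries, with 0 called by edgeR, 0 at an unadjusted p under 0.05 and a median log2 fold change of -0.07.

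**Figure D3:**
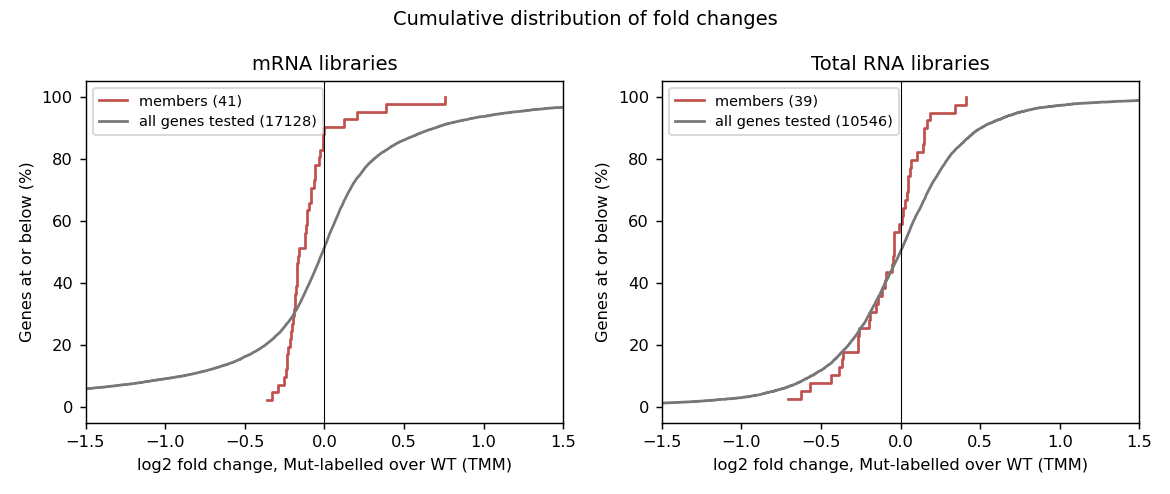
Share of genes (vertical axis, percent) at or below each TMM-scaled log2 fold change of Mut-labelled over WT (horizontal axis, clipped at 1.5 on both sides), for the members and for all genes tested. The members' curve lies left of 0 for 37 of 41 members in mRNA libraries and follows that of all genes more closely in total RNA libraries.

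The total RNA libraries, made without polyA selection, had fewer counts of the members, at most 176 in any library, so that only larger differences could be seen. Of 39 members tested 0 were called by edgeR or DESeq2, against 4.22% of 10546 genes by edgeR, and 3 had an unadjusted p under 0.05, against 14.8%. All 3 were lower in Mut-labelled libraries, against 7.13%. The log2 fold change was negative for 23 of 39, against 50.2% of all genes, with a median of -0.04, against -0.00. In 8 members both Mut-labelled libraries were below both WT libraries, against 21.4% of all genes, and in 3 they were above, against 22.5%. The median was 0.09 when WT replicate 1 was left out, 0.01 for Mut-labelled replicate 2, -0.17 for WT replicate 2 and -0.18 for Mut-labelled replicate 1, so that its sign rested on single libraries.

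The members with the lowest p in total RNA were Nob1, Utp15, Imp3 and Rrp9. Nob1 was at 44.2 and 54.5 CPM in Mut-labelled and 67.2 and 86.3 CPM in WT total RNA libraries, from 41 and 65 counts against 69 and 86 counts. As in mRNA, its groups did not overlap (log2 fold change -0.63, SE 0.24, edgeR adjusted p = 0.199). Utp15 was at 28.02 and 41.1 CPM in Mut-labelled and 62.3 and 52.2 CPM in WT (log2 fold change -0.71, SE 0.28, edgeR adjusted p = 0.211). Imp3 was at 46.3 and 46.1 CPM in Mut-labelled and 70.1 and 67.3 CPM in WT (log2 fold change -0.57, SE 0.24, edgeR adjusted p = 0.247). Rrp9 was at 57.1 and 46.1 CPM in Mut-labelled and 71.1 and 63.2 CPM in WT (log2 fold change -0.39, SE 0.24, edgeR adjusted p = 0.509). Utp15 was at -0.47 with Mut-labelled replicate 1 left out, and Rrp9 at -0.22 with Mut-labelled replicate 2 left out. Rrp12 and Tsr1 were also lower in both Mut-labelled libraries of both kinds. The share of all genes that were lower in both kinds was not computed. By contrast Noc4l was at 71.1 and 51.1 CPM in Mut-labelled and 44.8 and 46.2 CPM in WT total RNA libraries, above both WT values (log2 fold change 0.41, SE 0.26, edgeR adjusted p = 0.519). Wdr36 (0.15) and Dcaf13 (0.10) were also above both WT values in total RNA. In mRNA libraries these 2 were below both WT values. The dependence of the genotype difference on the kind of library, tested as an interaction over all 8 libraries, was called by edgeR for 0 of 41 members, with 0 at an unadjusted p under 0.05. Over all 17416 genes it was called for 0%, and 3.94% had an unadjusted p under 0.05. DESeq2 called 0 members and 12 genes in that test. Both fits treated the 8 libraries as independent, although their names appear to pair them by sample. With these pairs fitted, edgeR called 0 of 41 members and 111 of 17416 genes.

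Scaling to the ERCC counts in place of the gene counts moved all genes down in the Mut-labelled libraries, the members with them. The median log2 fold change of all genes became -0.38 in mRNA and -1.10 in total RNA libraries, and that of the members -0.52 and -1.16. Relative to all genes the members thus stood at -0.14 in mRNA and -0.06 in total RNA libraries, against -0.15 and -0.04 with TMM scaling. With this scaling alone 0 members were called by edgeR in either kind, against 0.993% of genes in mRNA and 3.54% in total RNA libraries, and 0 and 17 had an unadjusted p under 0.05, against 4.82% and 37.2%. Members with a negative value numbered 40 of 41 in mRNA, against 82% of all genes, and 39 of 39 in total RNA, against 97.6%. Dimt1 stayed positive, at 0.43. The members summed to 332 and 740 counts per 1000 ERCC counts in Mut-labelled and 529 and 979 in WT mRNA libraries, so that Mut-labelled replicate 2 lay above WT replicate 1. Among libraries of the same number the Mut-labelled sum was the lower for both numbers, although a shared number is not stated to mark a shared batch. In total RNA libraries they summed to 304 and 158 in Mut-labelled and 623 and 409 in WT, without overlap. Among single members, 1 of 41, Pno1, was lower in both Mut-labelled mRNA libraries on this scale, against 13% of all genes, and 35 of 39 in total RNA, against 84.1%. ERCC counts were 312754 and 142196 in Mut-labelled and 243670 and 118723 in WT mRNA libraries, and 7471 and 16620 in Mut-labelled and 4293 and 5649 in WT total RNA libraries. In the mRNA kind the libraries of replicate 1 thus had over 2 times the ERCC counts of those of replicate 2 in both genotypes.

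The product of these factors, 18S rRNA, was counted in the total RNA libraries. It stood at 312452 and 144017 counts per 1000 ERCC counts in Mut-labelled and 507336 and 400385 in WT libraries. Both Mut-labelled values were lower, and the mean was 0.503 times that of WT (exact permutation test, two-sided, p = 0.333, the smallest that 2 against 2 libraries allow). Per gene count of its own library, 18S stood at 2.41 and 1.96 in Mut-labelled and 2.10 and 2.26 in WT, with overlap. The ratio of 28S to 18S counts was 6.11 and 6.19 in Mut-labelled and 6.73 and 6.67 in WT libraries. This ratio needs no spike-in, and its groups were apart, with means of 6.15 ± 0.0553 in Mut-labelled and 6.70 ± 0.0427 in WT libraries (SD, n = 2 each, exact permutation test, two-sided, p = 0.333, again the smallest possible). Relative to 28S, 18S rRNA was thus higher in the Mut-labelled libraries.

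**Figure D4:**
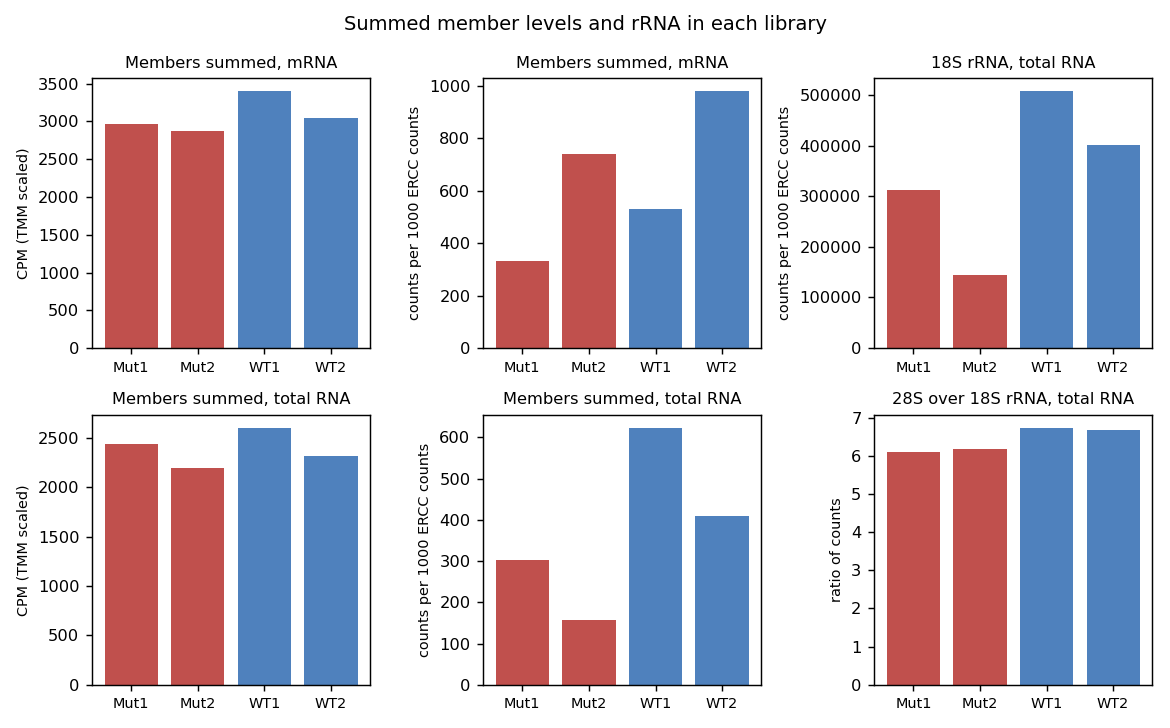
Summed level of the 41 members in mRNA (top) and total RNA (bottom) libraries as TMM-scaled CPM (left) and as counts per 1000 ERCC counts (middle), with 18S rRNA per 1000 ERCC counts and the ratio of 28S to 18S counts (right), 1 bar for each library. Mut-labelled libraries sum to 2969 and 2877 CPM and WT libraries to 3399 and 3042 CPM in the mRNA kind, and the 28S to 18S ratio is 6.11 and 6.19 in Mut-labelled and 6.73 and 6.67 in WT libraries.

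Other genes of the pathway were set beside the members from lists of their own. Of 24 further factors of the processome and pre-40S particle, 0 were called by edgeR in mRNA libraries and 0 had an unadjusted p under 0.05, with a median log2 fold change of -0.07 and 15 negative. The 3 with the smallest p were Tsr2 (-0.46, edgeR adjusted p = 0.345), which in yeast escorts a 40S protein, the kinase gene Riok3 (0.23, edgeR adjusted p = 0.477) and Ngdn (0.27, edgeR adjusted p = 0.499). Of 8 core proteins of box C/D and box H/ACA snoRNPs, which guide rRNA modification, 8 were negative with a median of -0.24, and 0 were called by edgeR. Dkc1, the pseudouridine synthase (-0.35), was the 1 gene among them at an unadjusted p under 0.05 (edgeR adjusted p = 0.251), and Nop10 (-0.37, edgeR adjusted p = 0.541) and Gar1 (-0.27, edgeR adjusted p = 0.554) followed. Of 40 factors of 60S assembly 33 were negative with a median of -0.13; edgeR called 0, and 2 had an unadjusted p under 0.05, in opposite directions: Sdad1 at -0.40 (edgeR adjusted p = 0.176) and Efl1 at 0.44 (edgeR adjusted p = 0.282). Of 32 genes of 40S proteins 16 were negative with a median of -0.01. There edgeR called 0, and 1, Rps6 (-0.98, edgeR adjusted p = 0.307), had an unadjusted p under 0.05. Rps6 was at 19.4 and 12.7 CPM in Mut-labelled and 20.9 and 42.6 CPM in WT mRNA libraries, so its value leaned on WT replicate 2. Its log2 fold change in total RNA libraries was 0.15. In total RNA libraries 23, 8, 40 and 27 genes of these 4 lists were tested, and their medians were -0.03, -0.15, -0.13 and 0.00, with 0 called by edgeR, and 1, 1, 2 and 0 genes at an unadjusted p under 0.05. The genes counted there were Tsr3 (-0.86), Snu13 (-0.72), and Ppan (-0.46) and Ftsj3 (-0.65).

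As a description, the members' promoters were searched on both strands for the E-box CACGTG. They were also searched for TGTGGT and TGCGGT, forms of the motif that RUNX proteins bind. The window ran from 250 bases before to 50 bases after the start in RefSeq entries on GRCm38.p6, and 35 of the 42 members had an entry. The E-box was found in 9 of 35 member promoters (25.7%), against 7.15% of 32851 promoters of all genes. A RUNX motif was found in 6 of 35 (17.1%), against 22.4% of all promoters. With 35 promoters these shares are close, and their difference was not tested. The 9 E-boxes are shown with their surroundings, the motif in capitals, each as 30 bases read 5′ to 3′ on the gene's strand. They began before the start in 3 members and after it in 6.
Imp4 (chr1:34439696-34439725, plus strand): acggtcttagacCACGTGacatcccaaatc
Utp18 (chr11:93885769-93885798, minus strand): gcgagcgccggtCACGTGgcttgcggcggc
Nol11 (chr11:107189407-107189436, minus strand): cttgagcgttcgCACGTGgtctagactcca
Utp4 (chr8:106893643-106893672, plus strand): tgcgcaagcgcgCACGTGgggccggggcgg
Wdr43 (chr17:71616220-71616249, plus strand): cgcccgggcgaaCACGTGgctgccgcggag
Tsr1 (chr11:74898092-74898121, plus strand): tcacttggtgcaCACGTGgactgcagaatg
Ltv1 (chr10:13193092-13193121, minus strand): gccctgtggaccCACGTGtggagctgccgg
Utp20 (chr10:88826765-88826794, minus strand): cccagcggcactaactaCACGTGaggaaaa
Pno1 (chr11:17211540-17211569, minus strand): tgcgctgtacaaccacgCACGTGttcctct
These 9 genes had log2 fold changes in mRNA libraries from -0.36 (Pno1) to -0.01 (Nol11). Between them lay Ltv1 (-0.24), Utp4 (-0.21), Utp20 (-0.17), Tsr1 (-0.11), Imp4 (-0.10), Wdr43 (-0.06) and Utp18 (-0.01). The median of all members was -0.16, and a relation of the motif to the fold changes was not tested.

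The RUNX motif was found in Bysl, Heatr1, Mphosph10, Nol11, Pno1 and Riok1. Nol11 and Pno1 held both motifs, and the 250 bases before their starts are shown with all matches in capitals. In Nol11 the RUNX motif TGTGGT begins 223 bases and the E-box 43 bases before the start. In Pno1 the RUNX motif is read on the opposite strand and begins 231 and 181 bases before the start.
Nol11 (chr11:107189382-107189631, minus strand): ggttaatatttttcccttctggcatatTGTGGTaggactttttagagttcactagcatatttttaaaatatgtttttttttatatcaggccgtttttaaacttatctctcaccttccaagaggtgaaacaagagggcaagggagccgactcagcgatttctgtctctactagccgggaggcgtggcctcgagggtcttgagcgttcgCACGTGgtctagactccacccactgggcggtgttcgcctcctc
Pno1 (chr11:17211590-17211839, minus strand): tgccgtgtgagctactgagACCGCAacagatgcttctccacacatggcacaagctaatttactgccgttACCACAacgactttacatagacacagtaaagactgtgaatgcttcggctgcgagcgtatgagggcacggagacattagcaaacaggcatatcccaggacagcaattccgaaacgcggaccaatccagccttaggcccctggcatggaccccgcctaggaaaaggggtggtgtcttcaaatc
Nol11 and Pno1 lay at both ends of the E-box genes, with log2 fold changes of -0.01 and -0.36. A match in these letters is a description of the sequence and not of binding, which was not measured.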

How the data were processed

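The deposited table held raw counts per gene for 8 libraries, as the authors deposited them. The tools TopHat, featureCounts and edgeR and the build mm9 are listed, without their roles, per the submitters' processing notes. Their versions and any use of strand are not stated there. Genes were named with GENCODE M21. ERCC transcripts and the 3 rRNA species were kept out of library sizes. Counts were TMM scaled, filtered with filterByExpr and fitted with edgeR 4.0.16 in R 4.3.3, by library kind (quasi-likelihood test, Benjamini-Hochberg adjustment over all genes tested, called at an adjusted p under 0.05). SE is the absolute log2 fold change over the root of F. The interaction used all 8 libraries as independent and, as an alternative, with the 2 libraries of each apparent sample fitted as a pair. The fit was tested on simulated data. Alternatives were ERCC scaling, RLE scaling, no filter, DESeq2 1.42.0, all 8 libraries in 1 fit, the replicate block and leaving out each library. The members and lists were chosen with earlier results of these data known. Values in every library are given for the 12 members with the smallest p in mRNA, the 4 in total RNA and examples of each role, and the log2 fold changes of the 3 genes with the smallest p among the further small subunit factors and among the snoRNP core. Noc4l, and Wdr36 and Dcaf13 in total RNA, were chosen after values were seen. So were genes named from the 60S, 40S and marker lists, those named in total RNA outside the members, and the exon overlaps. No pair of replicate libraries agreed within sampling noise (chi-square per degree of freedom 2.79 to 70.0).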

Additional observations from a re-analysis of the deposited data

How the results depend on the processing

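No member was called in either kind of library under RLE scaling, ERCC scaling, no filter, DESeq2, 1 fit of all 8 libraries or with any library left out. With the replicate number as a block, 3 members were called in mRNA libraries by edgeR, all lower in Mut-labelled libraries (Rrp12, adjusted p = 0.0198, Nob1, 0.0214, and Nat10, 0.0489), against 16.8% of all genes, and 0 in total RNA libraries, against 8.25%. Same-numbered libraries deviated together (r = 0.41 across genes in mRNA and 0.23 in total RNA libraries), but 2 pairs and a shared number do not show that they are pairs. ERCC scaling gave a median log2 fold change of -0.52 in mRNA libraries, and -1.16 with 39 members negative in total RNA libraries. ERCC scaling together with the block, chosen after the data were seen, called 37 members in mRNA (median -0.56), against 45.3% of all genes, and 38 in total RNA libraries (median -1.14, 39 negative), against 83.6%; the cause of these shifts was not tested. Leaving out 1 library in turn, the median ran from -0.23 to -0.058 in mRNA and from -0.18 to 0.092 in total RNA libraries, and members with a negative value from 29 to 35 and from 17 to 30. The log2 fold changes of Bms1 (-0.30 to 0.037) and Heatr1 (-0.12 to 0.0095) changed sign. Genes called in mRNA libraries numbered 624, against 1615 with DESeq2, 2870 with the block and 170 with ERCC scaling. In total RNA libraries they numbered 445, against 199 with DESeq2, 870 with the block, 273 with all 8 libraries and 724 with no filter. With at most 176 counts per member, total RNA libraries could show only larger differences.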

Other observations

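Per kilobase of exon in GENCODE M21, the levels of the members in mRNA libraries differed widely. Imp3 was highest, at a mean of 71.4 CPM per kilobase in Mut-labelled and 80.3 in WT libraries, followed by Rcl1, at 40.8 in Mut-labelled and 45.8 in WT. Dimt1 was lowest, at 1.40 in Mut-labelled and 0.825 in WT. Annotated exons that these cells do not use lower this measure.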
